A study of Mus musculus with 16 samples.

Results

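The interferon-stimulated genes described here are 42 genes that cells switch on when interferon reaches them, a list taken by name from the gene table, with earlier results of these data known. All 42 were found among its 55487 genes, and all 42 passed the filter on low values that left 18859 genes for testing. They were measured by bulk RNA-seq of cerebral cortex from 16 C57Bl6 male mice, 2 months of age. Mice received i.p. LPS, a bacterial cell wall component that provokes systemic inflammation, at 2 mg/kg, or PBS as the vehicle control. Injections were given on 2 days in a row, always at the same time of day (TOD), and cortex was collected on the day after the second. Injections fell at ZT1, shortly after lights-on, in 3 PBS and 5 LPS mice, or at ZT13, shortly after lights-off, in another 3 PBS and 5 LPS mice. All mice are labelled wild-type. Each library was taken as 1 mouse, which the labels imply but do not state, so p-values measure the spread between these libraries. Groups follow the sample titles, since a separate treatment field names the other treatment for 12 of the 16 libraries. Grouped by that field, none of the 42 genes passed in either LPS comparison described below. The study asked whether inflammatory breakdown of the blood-brain barrier depends on TOD, and the comparisons below ask the same of the interferon-stimulated genes.

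Interferons are secreted proteins that warn neighbouring cells of infection. Type I interferon binds a receptor made of IFNAR1 and IFNAR2, whose kinases phosphorylate STAT2. Joined with IRF9 in a complex, it binds a promoter element named the ISRE, while interferon gamma acts through an element named GAS. LPS itself is sensed by TLR4, which can induce type I interferon through the adaptor TRIF. The induced proteins detect foreign nucleic acid, block viral entry and translation, and attack microbes inside cells. In the brain, microglia, astrocytes and endothelial cells are all known to express them.

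RefSeq windows on GRCm38.p6, from 250 bases before to 50 bases after each annotated start, were on hand for 31 of the 42 genes. The ISRE core, searched on both strands as GAAA, any 2 bases and GAAA, was found in 19 of these 31 (61.3%), against 3.99% of all 27025 genes with a window (3.44% of 32851 windows). The GAS core, searched likewise as TTC, any 3 bases and GAA, was found in 10 of 31 (32.3%), against 9.55% of all genes with a window (8.3% of windows). Printed below are 6 stretches of 120 bases that end at the RefSeq start, 5′ to 3′ on the coding strand, to show how differently the element is arranged in genes that all responded to LPS. Capitals mark matches to the ISRE core, which may overlap. They lie at chr19:34640769-34640888 (+ strand), chr5:120907526-120907645 (- strand), chr5:120777660-120777779 (- strand), chr4:156200819-156200938 (- strand), chr11:58199436-58199555 (+ strand) and chr12:26456453-26456572 (- strand).
Ifit1: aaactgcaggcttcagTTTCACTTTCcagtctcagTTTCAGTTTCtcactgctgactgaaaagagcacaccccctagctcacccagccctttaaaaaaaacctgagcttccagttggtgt
Oas1a: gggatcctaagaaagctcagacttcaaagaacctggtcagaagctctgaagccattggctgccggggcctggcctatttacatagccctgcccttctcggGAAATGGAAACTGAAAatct
Oas3: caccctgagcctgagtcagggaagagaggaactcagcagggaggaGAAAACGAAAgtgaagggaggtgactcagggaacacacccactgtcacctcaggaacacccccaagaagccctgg
Isg15: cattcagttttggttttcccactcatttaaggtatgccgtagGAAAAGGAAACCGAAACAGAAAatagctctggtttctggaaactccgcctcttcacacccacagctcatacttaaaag
Igtp: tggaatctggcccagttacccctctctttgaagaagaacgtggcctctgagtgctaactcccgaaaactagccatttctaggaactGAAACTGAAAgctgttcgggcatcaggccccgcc
Rsad2: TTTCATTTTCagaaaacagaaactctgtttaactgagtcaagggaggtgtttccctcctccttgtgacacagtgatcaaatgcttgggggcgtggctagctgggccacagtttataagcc

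In *Isg15* 3 matches overlapped in a single run whose first base lay at -78 from the start, and in *Oas1a* 2 overlapped in a run that began at -20. In *Ifit1* 2 separate matches, on the other strand, began at -104 and -85. A single match began at -75 in *Oas3* and at -34 in *Igtp*, and a single match on the other strand began at -120 in *Rsad2*. *Igtp* also held a GAS match at -45, and *Irf1* held a GAS match at -90 but no ISRE match. The log2 fold changes after LPS had a median of 1.98 at ZT1 and 2.05 at ZT13 in the 19 genes with an ISRE match. In the 12 genes whose window held none the medians were 1.36 and 1.56, with values from 0.45 to 3.59 at ZT1 that spanned almost the whole range of the matched genes, 0.69 to 3.66. The 11 genes with no window on hand had medians of 1.87 and 1.88. These are descriptions of short windows, in which a missing match says nothing about regulation from elsewhere.

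LPS raised all of the interferon-stimulated genes at ZT1. Every one of the 42 passed the test as higher in LPS than in PBS mice, against 11.1% of all genes tested. At ZT13 it was 41 of 42, against 19.2% of all genes, the exception being *Cmpk2*. Scaling by medians of ratios, which moved the split of all calls from 68.2% to 54.1% higher at ZT1 and from 67.2% to 51.0% higher at ZT13, gave 41 genes called at each time. Over the 42 genes the log2 fold change had a median of 1.83 at ZT1 and 1.89 at ZT13, where the median over all genes was 0.04 and 0.05. Fold changes are differences in log2(CPM + 0.5), where CPM is the number of reads on a gene for every 1000000 reads on all genes of the library, and they understate the change of genes near 0. The test was limma's, with p-values adjusted over all genes tested and 0.05 as the threshold. At ZT1 38 genes and at ZT13 37 genes had a log2 fold change of at least 1, which together with a call was reached by 2.82% and 4.36% of all genes. The lowest LPS mouse lay above the highest PBS mouse for 40 genes at ZT1, against 15.9% of all genes, and for 41 at ZT13, against 20.9%. In bulk cortex, more cells of a type and more RNA per cell cannot be told apart.

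**Figure D1:**
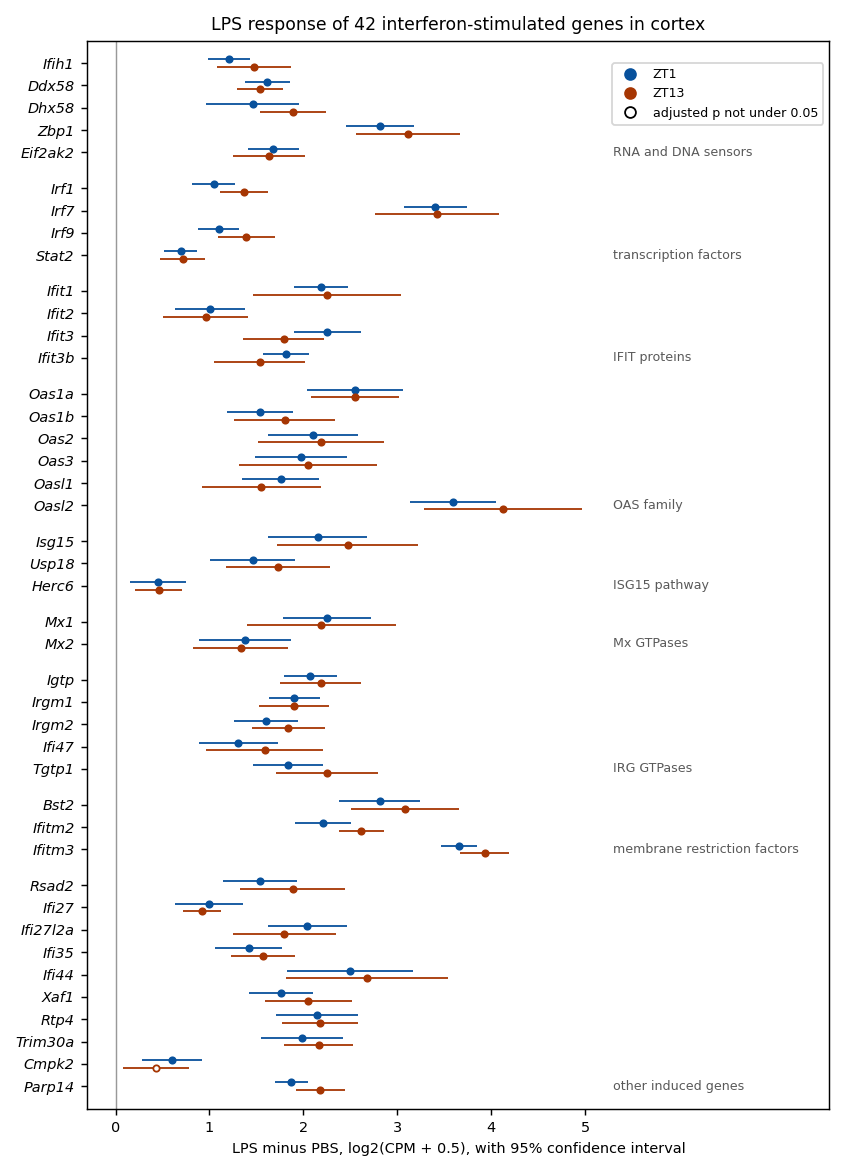
Difference between LPS and PBS mice in log2(CPM + 0.5) for each of the 42 genes (points, with 95% confidence intervals), at ZT1 (blue, 5 LPS and 3 PBS mice) and at ZT13 (brown, 5 LPS and 3 PBS mice), grouped by role. All points lie right of 0, from 0.43 to 4.12, and the single open point is *Cmpk2* at ZT13.

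The summed level of the 42 genes was 142 to 151 CPM in ZT1 PBS mice and 131 to 141 CPM in ZT13 PBS mice. It was 578, 461, 576, 503 and 475 CPM in the ZT1 LPS mice, and 505, 457, 714, 669 and 363 CPM in the ZT13 LPS mice. Even the lowest LPS mouse was thus well above every PBS mouse. Per kilobase of exon, *Ifitm3* was the most abundant of the 42 in LPS mice, at a mean of 91.2 CPM at ZT1 and 108 CPM at ZT13, followed by *Ifitm2* at 34.3 and 46.8 CPM. *Oas3* was the least abundant, at 0.242 and 0.313 CPM per kilobase.

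Libraries held 20251852 to 29112760 reads on genes, so that 3 reads correspond to 0.103 to 0.148 CPM. Markers of neurons summed to 4432 to 4572 CPM in ZT1 PBS and 4167 to 4418 CPM in ZT1 LPS mice, and to 4530 to 4782 CPM and 4101 to 4321 CPM at ZT13, where 3 of the 6 markers fell. Neutrophil markers summed to 0.569 to 1.48 CPM in PBS mice, where *Ly6g*, *Elane* and *Cxcr2* were at 0 in all 6 libraries, to 9.92 to 49.4 CPM in ZT1 LPS mice and to 33.0 to 88.0 CPM in ZT13 LPS mice. Of the 9 neutrophil markers 5 passed the filter, and 4 rose after LPS at ZT1 and 5 at ZT13. Microglial markers summed to 206 to 226 CPM in ZT1 PBS and 203 to 219 CPM in ZT13 PBS mice, and to 219 to 355 CPM and 259 to 308 CPM in the LPS mice of those times. Of the 9 microglial markers 6 rose and 2 fell at ZT1, and 6 rose and 3 fell at ZT13. Astrocyte markers went from 699 to 728 CPM over the PBS mice to 1215 to 1923 CPM over the LPS mice. *Gfap* rose most of them, by 2.64 and 3.09 in log2, while *Gja1* passed at neither time and *Sox9* only at ZT13. Endothelial markers summed to 171 to 175 CPM in ZT1 PBS and 117 to 137 CPM in ZT13 PBS mice. In the LPS mice of those times they summed to 189 to 270.5 CPM and 259 to 282 CPM. At ZT1 *Flt1* fell, *Kdr* and *Tek* did not pass and the others rose, and at ZT13 all but *Slco1a4* rose. Markers of monocytes and border macrophages summed to 8.003 to 10.96 CPM in PBS and 12.7 to 33.0 CPM in LPS mice. Markers of T and NK cells summed to 1.14 to 4.02 CPM, of B cells to 0.179 to 1.07 CPM, of erythrocytes to 6.16 to 35.8 CPM and of oligodendrocytes to 1780 to 2533 CPM over all 16 libraries. The part of these cells in the rise of the interferon-stimulated genes was not tested.

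The 5 sensors of foreign RNA and DNA rose at both times, by a median log2 of 1.62 at ZT1 and 1.64 at ZT13. *Ifih1* (ENSMUSG00000026896, chromosome 2 from 62595798 to 62646255 of GRCm38 in the GENCODE M21 annotation, as for the genes that follow) encodes MDA5, a cytosolic sensor of long double-stranded RNA. Its level was 4.78, 4.99 and 4.42 CPM in the ZT1 PBS mice and 13.1, 10.3, 12.7, 11.6 and 10.4 CPM in the ZT1 LPS mice. At ZT13 it was 4.71, 4.21 and 3.63 CPM in PBS mice and 12.4, 11.8, 15.9, 15.99 and 7.97 CPM in LPS mice. No PBS mouse reached the lowest LPS mouse, which at ZT13 was replicate 5. *Ifih1* rose in log2 by 1.21 (standard error 0.10, adjusted p = 1.6e-05) at ZT1 and by 1.47 (standard error 0.18, adjusted p = 3.2e-05) at ZT13. The related helicases *Ddx58* (RIG-I) and *Dhx58* (LGP2) rose by 1.62 and 1.46 at ZT1, and by 1.54 and 1.89 at ZT13. *Eif2ak2*, the kinase PKR that halts translation when it binds double-stranded RNA, rose by 1.68 and 1.64.

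*Zbp1*, a sensor of Z-form nucleic acid that can trigger necroptosis, went from near absence to a clear level. It was listed at 0 in all 3 ZT13 PBS libraries and at 0.134 ± 0.106 CPM (SD, 3 mice) in ZT1 PBS mice, against 3.95 ± 0.595 CPM (SD, 5 mice) in ZT1 LPS and 4.07 ± 1.63 CPM (SD, 5 mice) in ZT13 LPS mice. Taking the limit that a count of 0 allows, 3 reads per library, the ZT13 LPS mean was at least 31.5-fold higher than in PBS mice. At ZT1 the difference in log2 was 2.81 (standard error 0.17, adjusted p = 1.5e-06). At ZT13 it was 3.11 (standard error 0.26, adjusted p = 6.8e-07), with the PBS side set by the added 0.5 alone.

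Among the transcription factors, *Irf7* rose far more than the others. *Irf7*, the factor that amplifies interferon alpha production, went from 2.09 ± 0.625 (SD, 3 mice) to 26.7 ± 4.07 CPM (SD, 5 mice) at ZT1 and from 2.01 ± 0.264 (SD, 3 mice) to 28.98 ± 13.8 CPM (SD, 5 mice) at ZT13. In log2 this was 3.40 (standard error 0.15, adjusted p = 2.1e-07) at ZT1 and 3.42 (standard error 0.30, adjusted p = 1.5e-06) at ZT13. *Irf9* and *Stat2*, the DNA-binding and transactivating members of the complex that type I interferon forms, rose by 1.10 and 0.69 at ZT1 and by 1.39 and 0.71 at ZT13.

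*Irf1* (ENSMUSG00000018899, chromosome 11 from 53770014 to 53778374), an early factor that interferon gamma induces through GAS, was at 5.87, 5.13 and 4.71 CPM in ZT1 PBS and at 10.8, 10.9, 12.03, 12.9 and 9.99 CPM in ZT1 LPS mice. In ZT13 PBS mice it stood at 4.34, 3.81 and 3.56 CPM, and in ZT13 LPS mice at 10.3, 10.7, 12.2, 12.8 and 8.81 CPM. LPS and PBS mice did not overlap at either time, while the LPS mice of both times covered much the same range. The rise was 1.04 (standard error 0.10, adjusted p = 6.5e-05) at ZT1 and 1.37 (standard error 0.12, adjusted p = 1.1e-06) at ZT13. *Irf7* and *Irf9* each overlap a neighbouring gene in the annotation, *Phrf1* and *Rnf31*, and *Irf1* lies across an antisense gene. *Rnf31* lies on the same strand as *Irf9*, and for the others the use of strand in counting is not given in the sources used here, so that reads of such pairs cannot be told apart.

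**Figure D2:**
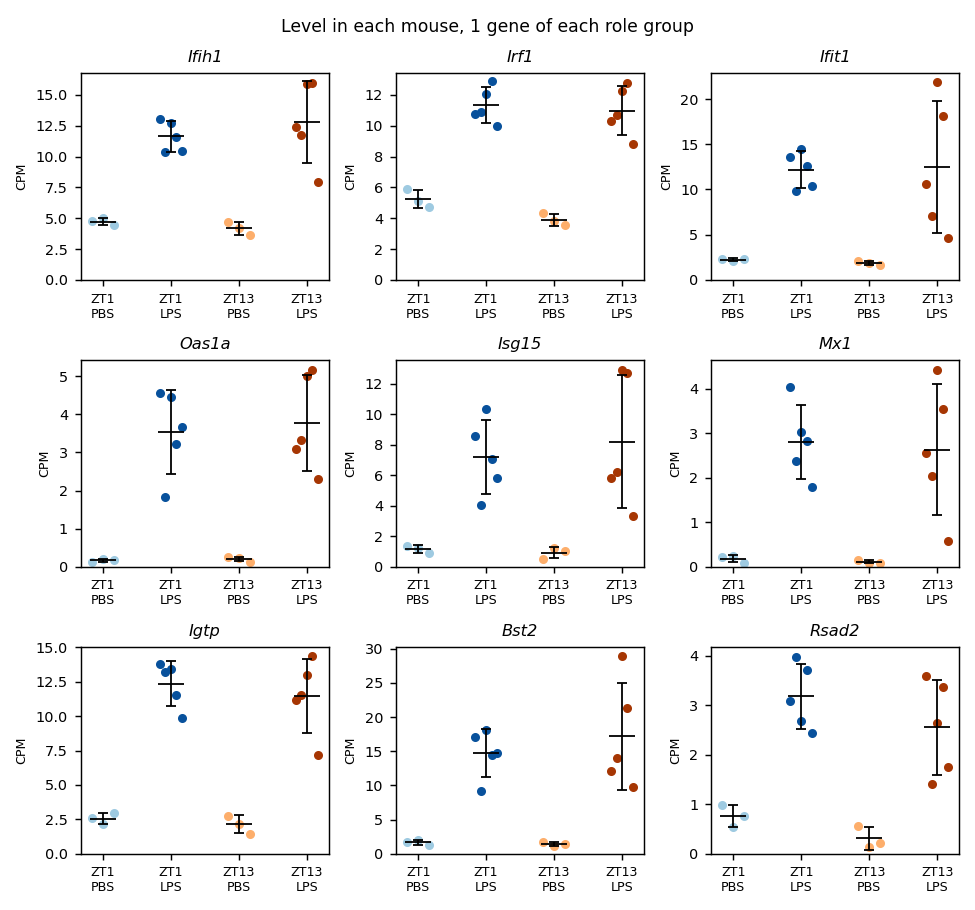
CPM on a linear axis from 0 in each of the 16 mice (points), with group means and SD (black), for 1 gene from each role group. For all 9 genes the LPS mice of both times sit above the PBS mice, and in all 9 panels the 5 ZT13 LPS points have the larger SD, spreading more widely than the 5 ZT1 LPS points.

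The 4 IFIT genes, whose products bind foreign mRNA and hold it out of translation, rose by a median log2 of 2.00 at ZT1 and 1.66 at ZT13. *Ifit1* (ENSMUSG00000034459, chromosome 19 from 34640871 to 34650009) was at 2.37, 2.07 and 2.33 CPM in ZT1 PBS and 13.6, 9.84, 14.5, 12.6 and 10.4 CPM in ZT1 LPS mice. At ZT13 its level was 2.09, 1.93 and 1.63 CPM in PBS and 10.6, 7.08, 21.8, 18.2 and 4.69 CPM in LPS mice. The ZT13 LPS mice fell both above and below all ZT1 LPS mice, with replicates 3 and 4 the highest of all 16. On the log2 scale *Ifit1* rose by 2.19 (standard error 0.13, adjusted p = 1.7e-06) at ZT1 and by 2.25 (standard error 0.37, adjusted p = 0.00035) at ZT13, so the standard error was larger at ZT13. *Ifit2* had the smallest rise of the family, 1.01 and 0.96.

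*Ifit3* (ENSMUSG00000074896, chromosome 19 from 34583531 to 34588731) was at 5.32, 3.29 and 5.68 CPM in ZT1 PBS and 19.03, 23.5, 28.9, 24.5 and 25.4 CPM in ZT1 LPS mice. Its ZT13 values were 5.48, 4.99 and 5.06 CPM in PBS and 24.2, 14.8, 23.95, 24.6 and 11.96 CPM in LPS mice. The rise was 2.25 (standard error 0.16, adjusted p = 5.9e-06) at ZT1 and 1.79 (standard error 0.20, adjusted p = 1.4e-05) at ZT13, and every LPS mouse exceeded every PBS mouse of its time. *Ifit3b*, with rises of 1.82 and 1.54, has a transcript 95.3% identical to that of *Ifit3* over its shorter length. Reads could be split between this pair in a way that depends on the counting, so the values of each are uncertain.

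The 6 genes of the OAS family, which make or resemble the enzymes that make oligoadenylates to activate the RNA-degrading enzyme RNase L, had low levels in PBS mice, at most 0.547 CPM in any mouse for the 5 genes other than *Oasl2*. The log2 fold changes of the 6 had medians of 2.04 at ZT1 and 2.12 at ZT13. *Oas1a* (ENSMUSG00000052776, chromosome 5 from 120896256 to 120907521) was at 0.131, 0.198 and 0.180 CPM in ZT1 PBS and 4.56, 1.84, 4.44, 3.23 and 3.66 CPM in ZT1 LPS mice. At ZT13 the PBS mice had 0.254, 0.231 and 0.134 CPM and the LPS mice 3.09, 3.33, 4.998, 5.17 and 2.30 CPM. All 10 LPS mice stood clear of the 6 PBS mice, and replicate 2 at ZT1 and replicate 5 at ZT13 were the lowest of their groups. The difference was 2.54 (standard error 0.23, adjusted p = 3.3e-05) at ZT1 and 2.55 (standard error 0.22, adjusted p = 1e-06) at ZT13.

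*Oasl2* (ENSMUSG00000029561, chromosome 5 from 114896936 to 114912234) had the highest fold change of the 42 genes at ZT13 on the log2(CPM + 0.5) scale, where genes near 0 such as *Zbp1* are understated. It was at 2.32, 1.38 and 2.02 CPM in ZT1 PBS and 39.5, 20.1, 35.5, 26.6 and 23.3 CPM in ZT1 LPS mice. At ZT13 the level was 1.14, 1.34 and 1.25 CPM in PBS and 24.7, 23.4, 65.3, 51.4 and 12.1 CPM in LPS mice. The ZT13 LPS mice thus ran from the lowest to the highest of the 10 LPS values. *Oasl2* rose in log2 by 3.59 (standard error 0.21, adjusted p = 1.4e-06) at ZT1 and by 4.12 (standard error 0.39, adjusted p = 2.6e-06) at ZT13. *Oas1b*, *Oas2* and *Oasl1* rose by 1.54, 2.10 and 1.76 at ZT1 and by 1.80, 2.19 and 1.55 at ZT13. *Oas3* had 3 reads in the 3 ZT1 PBS libraries together and 216 in the 5 ZT1 LPS libraries, a ratio of 37.5 after scaling by depth (95% exact interval 12.7 to 183, counting error only). In the ZT13 PBS libraries it had 6 reads in all, and its log2 differences were 1.98 at ZT1 and 2.05 at ZT13.

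The ISG15 pathway attaches a ubiquitin-like protein to other proteins. *Isg15* (ENSMUSG00000035692, chromosome 4 from 156199424 to 156200818), which encodes that modifier, was at 1.38, 1.23 and 0.884 CPM in ZT1 PBS and 8.58, 4.07, 10.3, 7.07 and 5.80 CPM in ZT1 LPS mice. At ZT13 it was at 0.531, 1.25 and 1.03 CPM in PBS and 5.80, 6.19, 12.9, 12.7 and 3.31 CPM in LPS mice. The ZT13 LPS mice fell into a pair at 12.9 and 12.7 CPM and 3 others between 3.31 and 6.19 CPM. Its rise was 2.15 (standard error 0.24, adjusted p = 0.00014) at ZT1 and 2.47 (standard error 0.35, adjusted p = 9.9e-05) at ZT13. *Usp18*, which removes ISG15 and also dampens the interferon receptor, rose by 1.46 and 1.73.

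*Herc6* (ENSMUSG00000029798, chromosome 6 from 57581000 to 57664632), the main ISG15 ligase of mice, had the lowest fold change of the 42 genes at ZT1. It was at 12.6, 13.3 and 10.7 CPM in ZT1 PBS and 17.7, 12.1, 19.2, 18.6 and 17.3 CPM in ZT1 LPS mice, with LPS replicate 2 lying inside the PBS range. The ZT13 values were 12.4, 12.5 and 10.3 CPM in PBS and 14.6, 15.8, 19.7, 18.5 and 13.5 CPM in LPS mice, without overlap. In log2, LPS mice were higher by 0.45 (standard error 0.14, adjusted p = 0.046) at ZT1 and by 0.46 (standard error 0.12, adjusted p = 0.0083) at ZT13. With single mice removed the ZT1 call was lost in 7 of 8 fits, with an adjusted p of 0.0010 without ZT1 LPS replicate 2 and of up to 0.19 otherwise. At ZT13 it was lost in 1 of 8, with an adjusted p of 0.055 without PBS replicate 3.

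Intact Mx genes encode dynamin-like GTPases that trap viral particles. Whether these C57Bl6 mice make working Mx proteins was not examined, and the values here are RNA levels only. *Mx1* (ENSMUSG00000000386, chromosome 16 from 97447035 to 97462907) was at 0.210, 0.249 and 0.0897 CPM in ZT1 PBS and 4.04, 2.38, 3.03, 2.83 and 1.79 CPM in ZT1 LPS mice. At ZT13 it stood at 0.152, 0.0925 and 0.0896 CPM in PBS and 2.57, 2.04, 4.43, 3.55 and 0.582 CPM in LPS mice. Replicate 5 at ZT13 had by far the smallest value among the 10 LPS mice, though still above all PBS mice. The differences were 2.25 (standard error 0.21, adjusted p = 3.9e-05) at ZT1 and 2.19 (standard error 0.37, adjusted p = 0.00047) at ZT13. *Mx2* rose by 1.38 and 1.33.

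The 5 IRG GTPases, which are induced above all by interferon gamma and act on the vacuoles of intracellular parasites, rose by medians of 1.84 at ZT1 and 1.90 at ZT13. *Igtp* (ENSMUSG00000078853, chromosome 11 from 58199556 to 58207591) was at 2.56, 2.15 and 2.95 CPM in ZT1 PBS and 13.8, 13.2, 13.5, 11.5 and 9.85 CPM in ZT1 LPS mice. Its ZT13 level was 2.76, 2.17 and 1.46 CPM in PBS and 11.2, 11.6, 13.01, 14.4 and 7.21 CPM in LPS mice. PBS and LPS mice were far apart at both times. In log2, *Igtp* differed by 2.07 (standard error 0.13, adjusted p = 2e-06) at ZT1 and 2.18 (standard error 0.20, adjusted p = 1.8e-06) at ZT13. *Irgm1*, *Irgm2*, *Ifi47* and *Tgtp1* rose by 1.91, 1.60, 1.31 and 1.84 at ZT1, and by 1.90, 1.84, 1.59 and 2.25 at ZT13. *Igtp* and *Irgm2* overlap on the same strand in the annotation, and the transcript of *Tgtp1* is 99.8% identical to that of *Tgtp2*, so how their reads were divided is uncertain.

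The membrane restriction factors stop viruses at the cell surface and in endosomes, and as a group they had the largest median log2 fold changes, 2.81 at ZT1 and 3.08 at ZT13. That order holds for log2(CPM + 0.5), since by the ratio of means the OAS family had the largest medians, 16.03 and 15.06, against 8.99 and 11.8 for the membrane restriction factors. *Bst2* (ENSMUSG00000046718, chromosome 8 from 71534255 to 71537456) encodes tetherin, which holds budding virions at the membrane. It was at 1.68, 1.98 and 1.26 CPM in ZT1 PBS and 17.02, 9.13, 18.2, 14.5 and 14.8 CPM in ZT1 LPS mice. At ZT13 the values were 1.78, 1.16 and 1.43 CPM in PBS and 12.1, 13.97, 28.9, 21.4 and 9.81 CPM in LPS mice. LPS mice were higher without overlap, by 2.81 (standard error 0.20, adjusted p = 4.7e-06) at ZT1 and 3.08 (standard error 0.27, adjusted p = 1.1e-06) at ZT13.

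*Ifitm3* (ENSMUSG00000025492, chromosome 7 from 141009586 to 141010770), whose product blocks fusion of viral and endosomal membranes, had the highest fold change of the 42 genes at ZT1 on the log2(CPM + 0.5) scale. It was at 4.44, 4.35 and 4.46 CPM in ZT1 PBS and 73.2, 59.1, 63.03, 52.97 and 60.7 CPM in ZT1 LPS mice. At ZT13 it was at 4.06, 4.07 and 4.66 CPM in PBS and 69.05, 61.1, 91.9, 83.3 and 59.9 CPM in LPS mice. The means differed 13.996-fold at ZT1 and 17.1-fold at ZT13. By this ratio of means, without the added 0.5, 7 genes were above it at ZT1 (*Oas3*, *Zbp1*, *Ifi27l2a*, *Oas1a*, *Oasl1*, *Mx1* and *Oasl2*). In log2 the rise was 3.66 (standard error 0.09, adjusted p = 2e-09) and 3.93 (standard error 0.12, adjusted p = 7.3e-11). It ranked 11 at ZT1 and 27 at ZT13 among the 18859 genes by fold change. *Ifitm2* (ENSMUSG00000060591, chromosome 7 from 140954837 to 140955987), a close relative with a like role, was at 4.04, 4.94 and 4.25 CPM in ZT1 PBS and 28.7, 23.7, 21.3, 21.3 and 17.1 CPM in ZT1 LPS mice. Its ZT13 level was 5.12, 4.26 and 4.30 CPM in PBS and 29.8, 28.1, 35.3, 35.3 and 24.8 CPM in LPS mice. The ZT13 LPS mice tended to lie above the ZT1 LPS mice, yet the ranges overlapped. The LPS rise was 2.21 (standard error 0.14, adjusted p = 2e-06) at ZT1 and 2.61 (standard error 0.11, adjusted p = 1.2e-09) at ZT13.

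Of the 10 other induced genes all rose at ZT1 and 9 at ZT13. *Rsad2* (ENSMUSG00000020641, chromosome 12 from 26442746 to 26456452) encodes viperin, an enzyme that makes a chain-terminating nucleotide. It was at 0.986, 0.543 and 0.758 CPM in ZT1 PBS and 3.08, 3.98, 2.68, 3.71 and 2.45 CPM in ZT1 LPS mice. At ZT13 it was at 0.569, 0.139 and 0.224 CPM in PBS and 3.59, 1.42, 2.64, 3.37 and 1.75 CPM in LPS mice. LPS mice were above PBS mice at each time, and the PBS mice overlapped between the times by their nearest values only. The rise was 1.54 (standard error 0.18, adjusted p = 0.00019) at ZT1 and 1.89 (standard error 0.26, adjusted p = 8.6e-05) at ZT13.

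*Cmpk2* (ENSMUSG00000020638, chromosome 12 from 26469204 to 26479837), a mitochondrial nucleotide kinase and the genomic neighbour of *Rsad2*, behaved differently. It was at 15.7, 12.9 and 13.8 CPM in ZT1 PBS and 24.6, 27.04, 21.8, 20.7 and 15.6 CPM in ZT1 LPS mice. At ZT13 the level was 16.9, 13.6 and 15.9 CPM in PBS and 21.5, 21.4, 29.2, 20.9 and 14.1 CPM in LPS mice. PBS and LPS mice overlapped at both times, in each case because LPS replicate 5 lay inside the PBS range. The log2 difference was 0.60 (standard error 0.14, adjusted p = 0.016) at ZT1 and 0.43 (standard error 0.16, adjusted p = 0.063) at ZT13, where it did not pass. Leaving out ZT13 LPS replicate 5 gave an adjusted p of 0.0013 at ZT13, and the ZT1 call was lost without PBS replicate 2 or PBS replicate 3, with an adjusted p of up to 0.076.

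*Ifi44*, of unsettled biochemical function, rose by 2.50 and 2.68, the largest of these 10 in log2(CPM + 0.5), although *Ifi27l2a* had the larger ratio of means at ZT1 (25.3 against 13.1). *Parp14*, a mono-ADP-ribosyltransferase, rose by 1.87 and 2.18, with 17.6 ± 1.12 CPM (SD, 5 mice) in ZT1 LPS and 17.5 ± 3.10 CPM (SD, 5 mice) in ZT13 LPS mice. *Trim30a*, which restrains inflammatory signalling, rose by 1.98 and 2.16, and *Xaf1*, a pro-apoptotic partner of XIAP, by 1.76 and 2.05. The chaperone *Rtp4* rose by 2.14 and 2.18 and *Ifi35* by 1.42 and 1.57. The mitochondrial *Ifi27* rose by 1.00 and 0.92, and its relative *Ifi27l2a*, which had 5 reads in the 3 ZT1 PBS libraries together, by 2.04 and 1.80.

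**Figure D3:**
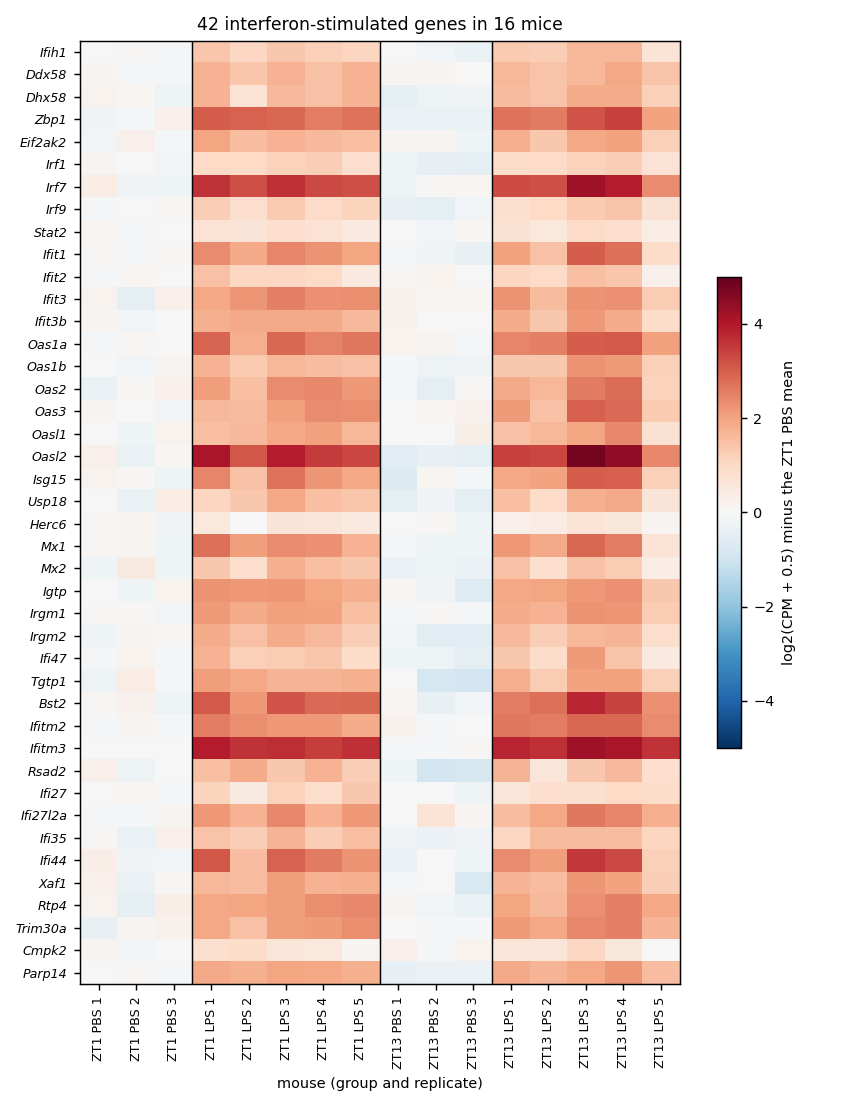
Level of each of the 42 genes (rows, with the role groups in the order of the text) in each of the 16 mice (columns), as log2(CPM + 0.5) minus the mean of the 3 ZT1 PBS mice, with red higher and blue lower. The 10 LPS mice are red in almost every row, and among the ZT13 LPS mice replicates 3 and 4 are the darkest and replicate 5 the palest.

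The signalling machinery around these genes was examined in a list of 46 interferon pathway genes, of which 32 passed the filter. Of these, 20 rose and 1 fell at ZT1, against 11.1% and 5.15% of all genes. At ZT13 24 rose and 1 fell, against 19.2% and 9.4% of all genes. The 13 interferon genes on the list were close to 0 in every library. None of the 13 had more than 4 reads in any of the 16 libraries, and none could be tested. Their summed level was 0.0421 to 0.231 CPM in PBS and 0.0906 to 0.320 CPM in LPS mice. *Ifnb1* had 1 read in 1 of the 16 libraries, and *Ifng* had 1 read in each of 2. At the time of collection no rise of any of these 13 transcripts was therefore detectable in cortex at this depth. Interferon genes not on the list were not examined.

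Of the receptor subunits, *Ifnar1* rose by 0.34 and 0.27, *Ifnar2* by 0.53 and 0.64, and *Ifngr1* by 0.69 and 1.02. *Il10rb*, shared by the lambda interferon receptor, rose by 0.62 and 1.00. Among the kinases none passed at ZT1, and *Jak2* and *Tyk2* passed at ZT13 with 0.17 and 0.20. *Irf5*, *Irf8* and *Irf2* rose at both times, *Irf8* most, by 0.87 and 1.18. *Irf3* passed at ZT13 with 0.29.

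Of the negative regulators, *Socs3* rose by 1.53 and 2.27 and the phosphatase *Ptpn6* by 1.72 and 2.64, while *Socs1*, *Pias1* and *Ptpn2* did not pass. Among the 15 upstream receptors and adaptors 11 rose at ZT1 and 12 at ZT13. *Ikbke*, a kinase that phosphorylates IRF3 and IRF7, rose most, by 1.47 (standard error 0.31, adjusted p = 0.0079) at ZT1 and 2.80 (standard error 0.15, adjusted p = 9.6e-09) at ZT13. *Tlr7*, *Tlr4*, *Trim25*, *Ticam2* and *Myd88* rose by 1.31, 1.07, 1.07, 1.16 and 0.72 at ZT1. The values at ZT13 were 1.58, 1.24, 1.44, 1.38 and 1.21. *Traf3* fell, by 0.26 at ZT1 and 0.19 at ZT13.

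**Figure D4:**
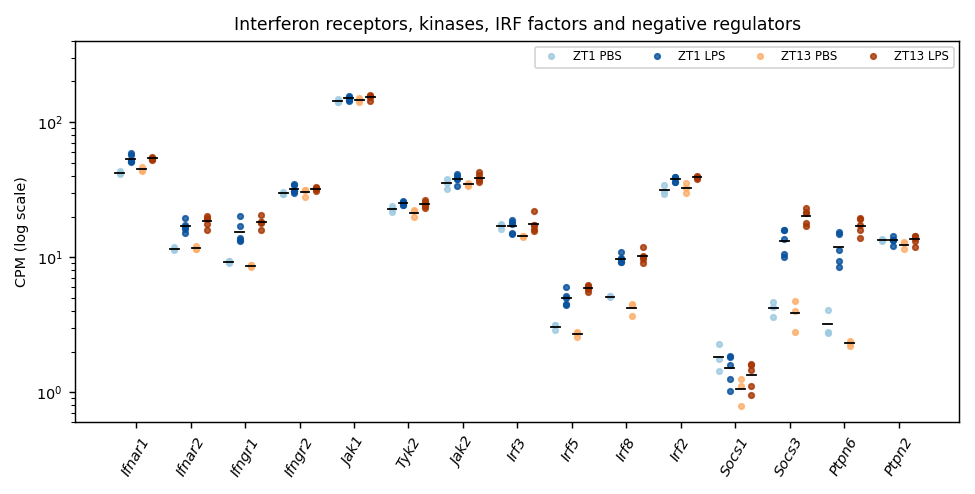
CPM on a log axis of 15 genes of interferon signalling in each mouse (points), with group means (black bars): receptors, kinases, IRF factors and negative regulators. *Socs3* and *Ptpn6* are well above their PBS levels in every LPS mouse, and the kinase *Jak1* has group means of 143 to 153 CPM.

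Whether the LPS response depended on TOD was asked first by comparing the LPS mice directly. The study took cortex at the same interval after the last injection in both time groups. TOD of injection and TOD of collection therefore cannot be told apart, here or in the PBS comparison and the interaction below. None of the 42 genes passed the test for a difference between ZT13 and ZT1 LPS mice, against 0.0212% of all genes. At an unadjusted p under 0.05 there was 1, *Ifitm2*, while 10.6% of all genes were below that value. The median difference was -0.03, with 15 genes higher and 27 lower at ZT13, where 55.6% of all genes were higher. No gene had groups without overlap, against 1.96% of all genes. The 95% confidence intervals of all 42 differences lay within 1 log2 unit of 0, and those of 26 lay within a fold of 1.5. Differences smaller than these intervals cannot be told from 0 with 5 mice a group.

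The mean of *Ifitm2* was 22.4 ± 4.24 CPM (SD, 5 mice) at ZT1 and 30.7 ± 4.61 CPM (SD, 5 mice) at ZT13 in LPS mice. The difference was 0.45 (standard error 0.12, adjusted p = 0.19), with a 95% confidence interval of 0.18 to 0.72. This was the largest of the 42, and it passed (adjusted p = 0.031) without ZT1 LPS replicate 1, the mouse with the highest ZT1 value, and with weights for sample quality (adjusted p = 0.040). Over the other fits that left out 1 mouse the adjusted p reached 0.43. *Ifitm3* followed with 0.23 (standard error 0.11, adjusted p = 0.53). The most negative differences were those of *Ifit3*, -0.32 (standard error 0.18, adjusted p = 0.59), and *Rsad2*, -0.31 (standard error 0.21, adjusted p = 0.66). *Ifitm2* overlaps *Gm45717* on the same strand in the annotation, so how their reads were divided is uncertain.

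In PBS mice none of the 42 genes passed between ZT13 and ZT1 either, against 0.52% of all genes. At an unadjusted p under 0.05 there were 6, where 13.5% of all genes were below it. The median difference was -0.15, with 31 genes lower and 11 higher at ZT13, where 49.8% of all genes were higher. The PBS mice of the 2 times did not overlap for 6 genes, *Zbp1*, *Irf1*, *Irf9*, *Oasl2*, *Ifi47* and *Parp14*, against 18.7% of all genes. *Zbp1* rests on few reads here, at 0.0493, 0.0988 and 0.253 CPM in the ZT1 PBS mice and 0 in all ZT13 PBS mice. The smallest p-values belonged to *Irf9* at -0.34 (standard error 0.11, adjusted p = 0.23), *Irf1* at -0.38 (standard error 0.13, adjusted p = 0.25), *Rsad2* at -0.66 (standard error 0.23, adjusted p = 0.26) and *Parp14* at -0.33 (standard error 0.12, adjusted p = 0.26). With 3 mice a group the median half-width of the 95% confidence intervals was 0.39 in log2.

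The difference between the LPS responses at ZT13 and ZT1 was tested as the TOD × treatment interaction, which uses the same 16 mice as the comparisons above. None of the 42 genes passed, against 0.159% of all genes. At an unadjusted p under 0.05 there was 1, where 9.25% of all genes were below it. The median was 0.13 with 30 of 42 positive, where 54% of all genes were positive. A positive value can come from lower PBS levels at ZT13 as well as from higher LPS levels. The 4 genes with the smallest p-values were *Ifitm2* at 0.41 (standard error 0.19, adjusted p = 0.54), *Parp14* at 0.31 (standard error 0.15, adjusted p = 0.56), *Irf1* at 0.33 (standard error 0.16, adjusted p = 0.56) and *Ifitm3* at 0.27 (standard error 0.17, adjusted p = 0.67). From ZT1 to ZT13, *Ifitm2* and *Ifitm3* differed by 0.45 and 0.23 in LPS mice and by 0.04 and -0.05 in PBS mice. For *Parp14* and *Irf1* the differences were -0.02 and -0.05 in LPS mice and -0.33 and -0.38 in PBS mice. *Parp14* overlaps *Gm49730* on the same strand, so the division of their reads is uncertain too. The intervals of the 42 genes were wide, and 29 of the 42 lay within 1 log2 unit of 0. None of the 32 pathway genes passed in these 3 TOD comparisons, in which *Ikbke* had a difference of 1.11 (standard error 0.26, adjusted p = 0.13) in LPS mice and an interaction of 1.33 (standard error 0.38, adjusted p = 0.22). Without ZT1 LPS replicate 1, *Ikbke* passed in both (adjusted p = 0.010 and 0.021) and *Socs3* passed in LPS mice (adjusted p = 0.024).

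In the interferon-stimulated genes, though not over all genes tested, the LPS mice differed more among themselves at ZT13 than at ZT1. For 37 of the 42 genes (88.1%) the SD of log2(CPM + 0.5) was larger in the 5 ZT13 LPS than in the 5 ZT1 LPS mice, where this was so for 38.86% of all genes tested. The median SD of the 42 was 0.25 at ZT1 and 0.41 at ZT13, against 0.13 and 0.11 over all genes. These are descriptions over genes that move together in the same mice, and no test was made of them. Replicate 5 at ZT13 was the lowest mouse of its group for 37 of the 42 genes, and replicates 3 and 4 were each the highest for 20. Relative to the mean of the 10 LPS mice, the median over the 42 genes was 0.36 in replicate 3, 0.34 in replicate 4 and -0.57 in replicate 5. At ZT1 the same medians ran only from -0.16 in replicate 2 to 0.19 in replicate 3. Without ZT13 LPS replicate 5 the SD was still larger at ZT13 for 31 of the 42 genes, against 35.55% of all genes, and the median SD at ZT13 was 0.32. Without it the median difference between ZT13 and ZT1 LPS mice became 0.11, from -0.03.

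**Figure D5:**
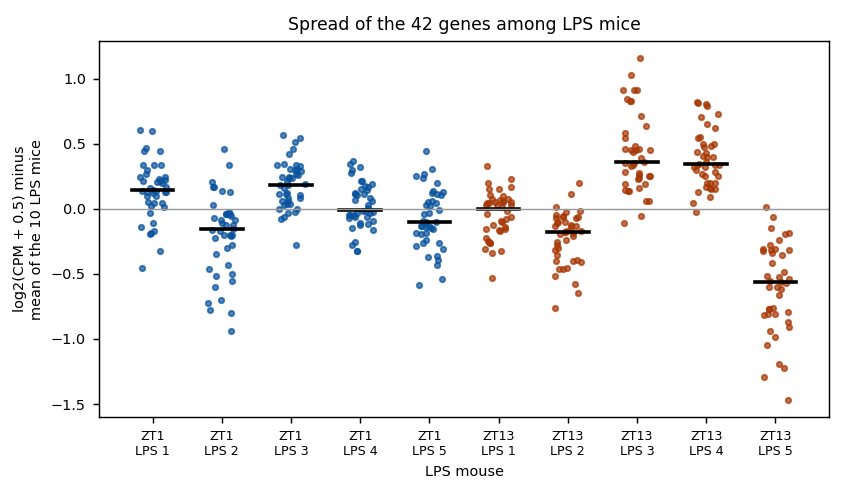
Each of the 42 genes (points) in each of the 10 LPS mice, as log2(CPM + 0.5) minus the mean of the 10 mice, with the median over genes (black lines). At ZT13 replicates 3 and 4 lie above 0 at 0.36 and 0.34 and replicate 5 lies below it at -0.57, while the ZT1 medians stay between -0.16 and 0.19.

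Neutrophil markers had a like order among the ZT13 LPS mice, with sums of 61.1, 50.5, 87.0, 88.0 and 33.0 CPM in replicates 1 to 5. At ZT1 the sums were 49.4, 10.03, 20.3, 43.2 and 9.92 CPM, where replicates 1 and 3 were the highest mouse for 17 and 16 of the 42 genes. Other marker sums shared part of this order at ZT13. Monocyte and border macrophage markers summed to 28.7, 28.7, 33.0, 32.2 and 28.2 CPM in replicates 1 to 5. T and NK cell markers were also highest in replicates 3 and 4, but replicate 5 came next. Their sums were 2.57, 1.93, 3.94, 4.02 and 3.58 CPM in replicates 1 to 5. Erythrocyte markers were at 21.8, 6.60, 25.04, 23.99 and 11.1 CPM. Astrocyte markers were lowest in replicate 5, at 1555 CPM against 1806 to 1923 CPM. Microglial markers did not follow that order at ZT13, with sums of 299, 308, 259, 262 and 297 CPM. The part of these cells in the spread of the interferon-stimulated genes was not tested.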

How the data were processed

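Ribosome-depleted total RNA from cortex was sequenced in 16 libraries. The submitters' processing notes name bcl2fastq, DRAGEN 4.0.3-8 and the build GRCm38. The counting tool, annotation and use of strand are not given in the sources used here. The authors deposited 1 table of CPM, scaled so that each column sums to 1000000 over 55487 genes after 287 repeated lines were dropped. The lowest values were read as steps of 1 read, which gave the depths in the text. Only 81.7% to 83.4% of values up to 20 reads per library were whole multiples of that step (within 0.02), so no count test was run.

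Testing was limited to genes that reached 1 CPM in 3 or more libraries, and used log2(CPM + 0.5) in limma 3.58.1 (trend, R 4.3.3) with Benjamini-Hochberg adjustment over 18859 genes, checked on simulated data. Each of 4 pairwise comparisons was fitted on its own groups, and the interaction on all 16 libraries. Members, role groups, pathway and marker lists were chosen with earlier results of these data known, and 1 gene of the pathway list is not reported here. Every member is named with its LPS tests. For TOD, the 4 smallest p-values are named. Values by mouse are given for the first gene of each role group, the highest and lowest fold changes and the 4 smallest TOD p-values in LPS mice. Promoter sequences are from RefSeq (GRCm38.p6), and 31 of 42 members matched. Protein sequences were not used here. Python 3.11.15 was used for tables (pandas 2.3.3, numpy 2.4.6) and plots (matplotlib 3.10.9).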

Additional observations from a re-analysis of the deposited data

Results flagged for a closer look

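The lowest or highest mouse of each LPS group of 5 was compared with the other 4 by Dixon's ratio, for the 42 interferon-stimulated genes and the 26 pathway genes that passed in an LPS comparison. Chance alone marks about 1 group in 20, and 2 of the 136 groups were marked. *Herc6* was at 12.1 CPM in ZT1 LPS replicate 2, far below the other 4 mice of its group (ratio 0.73). *Mavs*, the adaptor of the RNA sensors, was at 9.38 CPM in ZT1 LPS replicate 1, far above the other 4 (ratio 0.84). No gene of either list was marked in the ZT13 LPS mice, although replicate 5 was the lowest there for 37 of the 42 genes.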

How the results depend on the processing

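Direction was kept in all 743 refits of single interferon-stimulated genes at each time, and the call changed in 16 at ZT1 (all lost) and in 7 at ZT13 (4 lost, 3 gained). The calls that changed were those of *Herc6* and *Cmpk2* at both times and of *Ifit2* at ZT13, where its adjusted p was 0.076 when every gene with a CPM above 0 was tested. Leaving out 1 mouse gave 40 to 42 genes called at ZT1 and 40 to 42 at ZT13. A smaller pseudocount of 0.1 gave medians of 2.11 at ZT1 and 2.38 at ZT13, and a larger one of 1 gave 1.55 and 1.59, as follows from its construction. Quantile normalization lowered the median of all genes at ZT13 by 0.11 and left medians of 1.62 for the 42 genes at each time.

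Grouping by the treatment field of the labels gave 0 of the 42 genes and 0 pathway genes called in either LPS comparison. Testing every gene with a CPM above 0 gave 12 pathway genes called at ZT1, from 21. Between ZT13 and ZT1 in LPS mice, 1 of the 42 genes and 2 pathway genes passed with sample quality weights, where 1.19% of all genes passed. In 1 fit of all 16 libraries 1 pathway gene passed, where 0.647% of all genes passed. The share of all genes was 0.0212% in the main fit. Fits without 1 mouse gave 0 to 1 of the 42 and 0 to 2 pathway genes. For the interaction, fits without 1 mouse gave 0 to 1 pathway genes. The cause of these changes was not tested.

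Samples that share a replicate number share nothing else in the labels, and their deviations from the group means correlated at -0.20 to 0.33. With the replicate number as a block, 41 of the 42 genes were called at ZT1 and 42 at ZT13, 17 and 21 pathway genes were called, and none was called in the TOD comparisons. The median difference between ZT13 and ZT1 LPS mice ranged from -0.13 to 0.11 as single mice were left out, and the number of genes with a larger SD at ZT13 from 31 to 40. Those 2 ranges, and all medians without 1 mouse, were chosen after seeing the data. Genes near 0 in PBS mice (*Zbp1*, *Oas3*, *Ifi27l2a*) rest on few reads, and counting error limits their fold changes.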
